A study of Mus musculus with 8 samples.

Results

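The 29 genes described here encode enzymes and regulators of cholesterol and fatty acid synthesis. They were chosen by symbol from the 24421 gene symbols in each count file. The list holds 7 enzymes of the mevalonate steps, 10 of the squalene and sterol steps, 5 genes of sterol sensing, the sterol carrier gene Stard4 and 6 enzymes of fatty acid synthesis. Of the 29, 28 passed the filter on low counts. Scd1 did not, with 0 and 5 counts in WT against 0 and 4 in KO.

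RNA was sequenced from leukemic bone marrow cells of C57BL/6 mice that had been transformed with MLL-AF9, a fusion oncogene of acute leukemia, and sorted for high c-KIT, the stem cell factor receptor of immature blood cells. WT cells came from Ikzf2f/f mice, which carry the gene in a form flanked by recombination sites, and KO cells from Ikzf2Δ/Δ mice. Ikzf2 encodes Helios, a transcription factor of the Ikaros family. Each genotype had 2 libraries, and all 4 libraries share the fusion oncogene, the sort, the strain and thawing from frozen marrow. The labels give no age, no Cre driver, and no statement on whether a library is 1 mouse or a pool, so the spread behind each p-value is that of these libraries.

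Gene counts ran from 16006081 to 19286090 per library. Ikzf2 stood at 284 and 271 CPM (a gene's count scaled to its library's TMM-normalised total) in WT and at 10.9 and 26.5 CPM in KO. KO replicate 1 stood apart in its sex-linked genes, with Xist at 833 CPM against 0.35 to 0.60 CPM in the other libraries and the Y-linked gene Ddx3y at 0.062 CPM against 70.1 to 110 CPM. The KO libraries thus came from mice of different sex, and their spread includes a difference between animals. Both WT libraries had low Xist and high Ddx3y, as in KO replicate 2, so sex is not balanced between the genotypes. KO replicate 1 also had the highest summed level of dendritic cell and MHC class II markers (1860 CPM, against 189 to 410 CPM). Of these 8 markers 5 were higher in both KO libraries. The summed level of 10 granule neutrophil markers was 1420 and 6070 CPM in WT against 21800 and 30000 CPM in KO, with 8 of 10 higher in both KO libraries. Leukemic progenitor markers, with 7 of 7 detected, summed to between 2870 and 3210 CPM in the 4 libraries. The defining erythroid genes Hba-a1, Hbb-bt and Hbb-bs had 0 counts. Of 5 erythroid markers 2 were detected, with a sum between 1.75 and 2.2 CPM. The adipocyte genes Adipoq and Plin1 had 0 counts. Of 6 stromal and adipocyte markers 4 were detected, with a sum of at most 2.11 CPM. Macrophage markers summed to between 72.4 and 123 CPM, T and NK cell markers to between 69.7 and 136 CPM, B cell markers to between 17.7 and 35.3 CPM, mast cell and basophil markers to between 31.4 and 96.4 CPM, and megakaryocyte markers to between 11.5 and 118 CPM, with Ppbp at 0. In bulk RNA, fewer cells of a type and less RNA per cell cannot be told apart.

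Cholesterol and fatty acids are both built from acetyl-CoA in the cytosol, which ATP citrate lyase makes from citrate. The mevalonate steps turn acetyl-CoA into isoprenoids, and the later steps condense these into squalene, close its rings and trim the product to cholesterol. Transcription of both branches is driven by the SREBP proteins, products of Srebf1 and Srebf2, which Scap carries to the Golgi for activation when sterols are low and which the Insig proteins hold back in the endoplasmic reticulum when sterols are plentiful. SREBP-2 acts mainly on sterol genes and SREBP-1c mainly on fatty acid genes, and Srebf1 is itself induced by the oxysterol receptors LXR. SREBP proteins bind DNA weakly alone and act with the neighbouring factors NF-Y and Sp1.

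The bases before the transcript start are shown for 5 members, to show which motifs for these factors the members hold. Hmgcs1 is shown for its match to the sterol regulatory element, Cyp51 and Sc5d as sterol genes that differed strongly between libraries of a genotype, Fasn as the fatty acid synthase gene and Elovl6 as the member that fell in KO by DESeq2. Each sequence is the 250 bases upstream of a RefSeq transcript start on GRCm38.p6, read 5′ to 3′ on the gene's strand. Capitals mark complete matches, on either strand, to CCAAT (NF-Y box), GGGCGG (Sp1 box), CACGTG (E-box) and TCACNCCAC (sterol regulatory element).
Hmgcs1, chr13:119690101-119690350, plus strand: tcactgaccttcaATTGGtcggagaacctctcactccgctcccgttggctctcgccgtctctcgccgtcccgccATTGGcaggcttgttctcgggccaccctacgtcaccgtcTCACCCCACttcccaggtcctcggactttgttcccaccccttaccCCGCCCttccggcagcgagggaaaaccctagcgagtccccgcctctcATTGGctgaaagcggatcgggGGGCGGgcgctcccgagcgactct
Cyp51, chr5:4104698-4104947, minus strand: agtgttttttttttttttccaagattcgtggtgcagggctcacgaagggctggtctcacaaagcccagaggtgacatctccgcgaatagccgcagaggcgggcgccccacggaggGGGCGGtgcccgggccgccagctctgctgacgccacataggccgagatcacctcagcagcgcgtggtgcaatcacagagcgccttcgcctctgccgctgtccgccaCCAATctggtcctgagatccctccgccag
Sc5d, chr9:42264301-42264550, minus strand: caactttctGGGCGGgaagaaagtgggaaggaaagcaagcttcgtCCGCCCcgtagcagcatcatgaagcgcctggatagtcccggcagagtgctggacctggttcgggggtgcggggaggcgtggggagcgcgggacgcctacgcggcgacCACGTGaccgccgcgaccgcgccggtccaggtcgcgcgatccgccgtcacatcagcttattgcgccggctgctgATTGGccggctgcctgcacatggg
Fasn, chr11:120824548-120824797, minus strand: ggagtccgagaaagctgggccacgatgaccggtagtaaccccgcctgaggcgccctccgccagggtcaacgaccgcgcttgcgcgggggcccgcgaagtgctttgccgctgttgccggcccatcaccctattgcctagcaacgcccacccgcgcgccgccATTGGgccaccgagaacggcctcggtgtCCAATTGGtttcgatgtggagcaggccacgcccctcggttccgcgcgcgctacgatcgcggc
Elovl6, chr3:129532136-129532385, plus strand: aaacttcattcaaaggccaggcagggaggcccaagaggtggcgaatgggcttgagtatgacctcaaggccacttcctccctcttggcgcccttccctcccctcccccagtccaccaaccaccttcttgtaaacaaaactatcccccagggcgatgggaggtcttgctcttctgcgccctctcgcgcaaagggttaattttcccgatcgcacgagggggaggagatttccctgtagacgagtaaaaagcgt

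Windows of 250 bases before to 50 after the start were at hand for 23 of the 29 members, and a gene was counted once if any of its windows held a match. The NF-Y box was found in 13 of 14 sterol enzymes, 92.9%, and in 2 of 4 fatty acid enzymes, against 42.8% of 9599 tested genes with a window and 41.1% of all 27025 genes with one. The Sp1 box was found in 13 of 14 sterol enzymes, in 1 of 4 fatty acid enzymes and in 5 of 5 sterol sensing genes, against 67.5% of the tested genes and 38.2% of all genes. A gene with more windows has more chances of a match. Of the sterol sensing genes Srebf1 and Insig2 had 3 windows each and Scap 2, while all 27025 genes had 32851 windows. The Sp1 boxes of Insig2 lay outside its window with most matches. The E-box occurred in 5 of 23 members, against 11.8% of the tested genes and 8.09% of all genes. The sterol regulatory element in this spelling occurred in Hmgcs1 alone among the 23, and in 1.42% of the tested genes and 1.44% of all genes. Hmgcs1 carried 4 NF-Y boxes and 3 Sp1 boxes in its window and Mvk 5 and 2. The 3 NF-Y boxes of Fasn include a pair that share bases on opposite strands, seen as CCAATTGG in its sequence, and matches of different motifs overlapped in 0 cases. Elovl6 and Acaca held 0 matches, which says only that these letters are not in these windows.

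**Figure D1:**
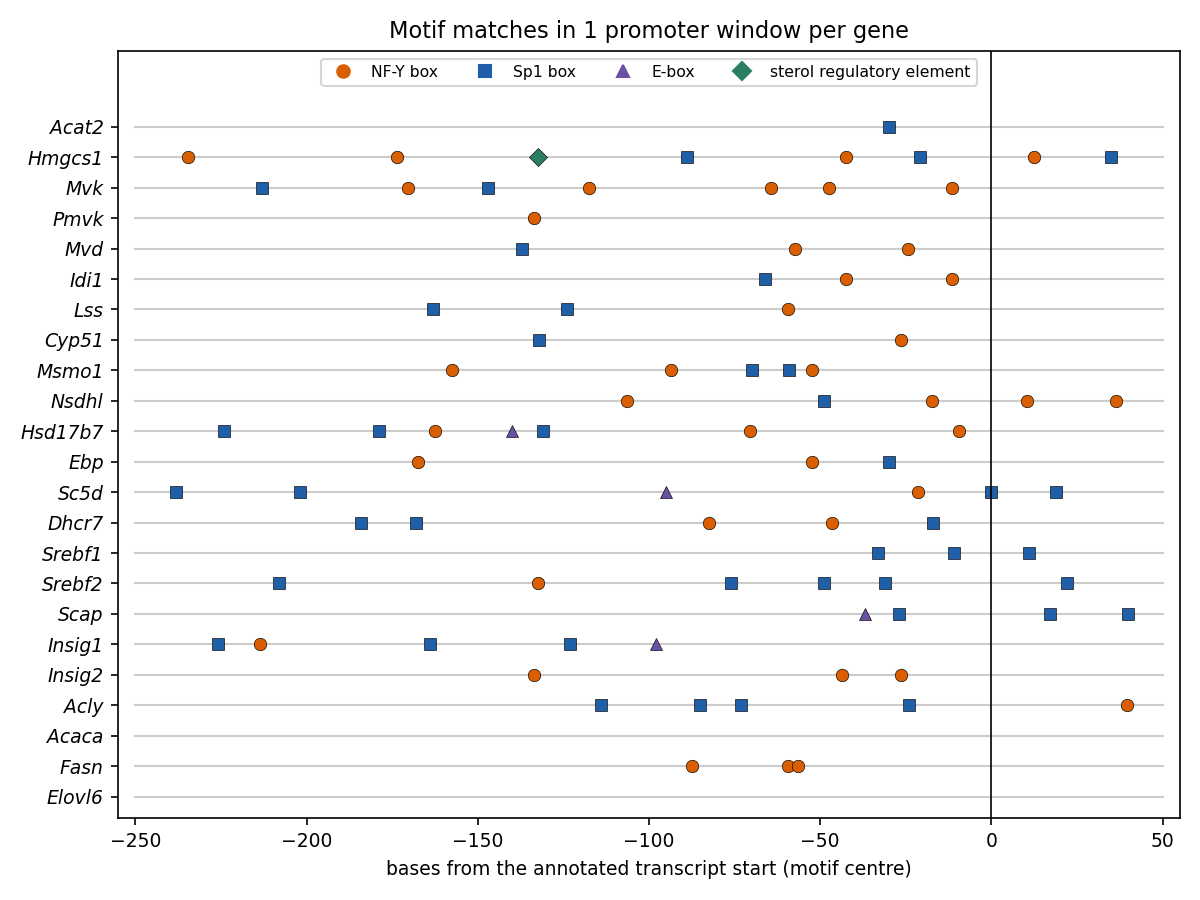
Position of each motif match (centre, in bases from the annotated transcript start, marked by the vertical line) in 1 window for each of the 23 members with one, the window with most matches where a gene has several. NF-Y and Sp1 boxes recur in the sterol enzymes from Acat2 to Dhcr7, while Acaca and Elovl6 hold 0 matches.

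Among the 28 tested members Elovl6, 3.41-fold lower in KO, stood furthest from WT. DESeq2 called it, edgeR and voom did not, and none of these tests called another member. Of the 28 tested members 0 had an adjusted p under 0.05 in edgeR's quasi-likelihood test, against a background of 0% of 12623 genes. Their lowest adjusted p was 0.459, at Elovl6. The targeted gene Ikzf2, 14.8-fold lower in KO, was also not called by edgeR (adjusted p = 0.332) or voom (adjusted p = 0.397). DESeq2 did call Ikzf2 (adjusted p = 1.13e-13). A missing call by edgeR or voom thus does not show that a gene is unchanged. At an unadjusted p under 0.05 there was 1 member, Elovl6, against 7.67% of all tested genes, and voom called 0 genes in all. DESeq2 called 1 of 28 members lower in KO, again Elovl6, and 0 higher, where 1.07% of 13422 genes were called lower and 1.56% higher. Log2 fold changes of KO against WT were below 0 in 22 of 28 members, against 50.5% of all tested genes, with a median of -0.22 against -0.0043 over all tested genes. This rested on WT replicate 1: without it 14 of 28 were below 0, with a median of 0.0061, while between 19 and 21 were below 0 without any other library. Both KO libraries lay below both WT libraries in 6 members, 19.1% of all tested genes doing so, and above them in 3, against 18.1%. The other 19 members overlapped between the genotypes.

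**Figure D2:**
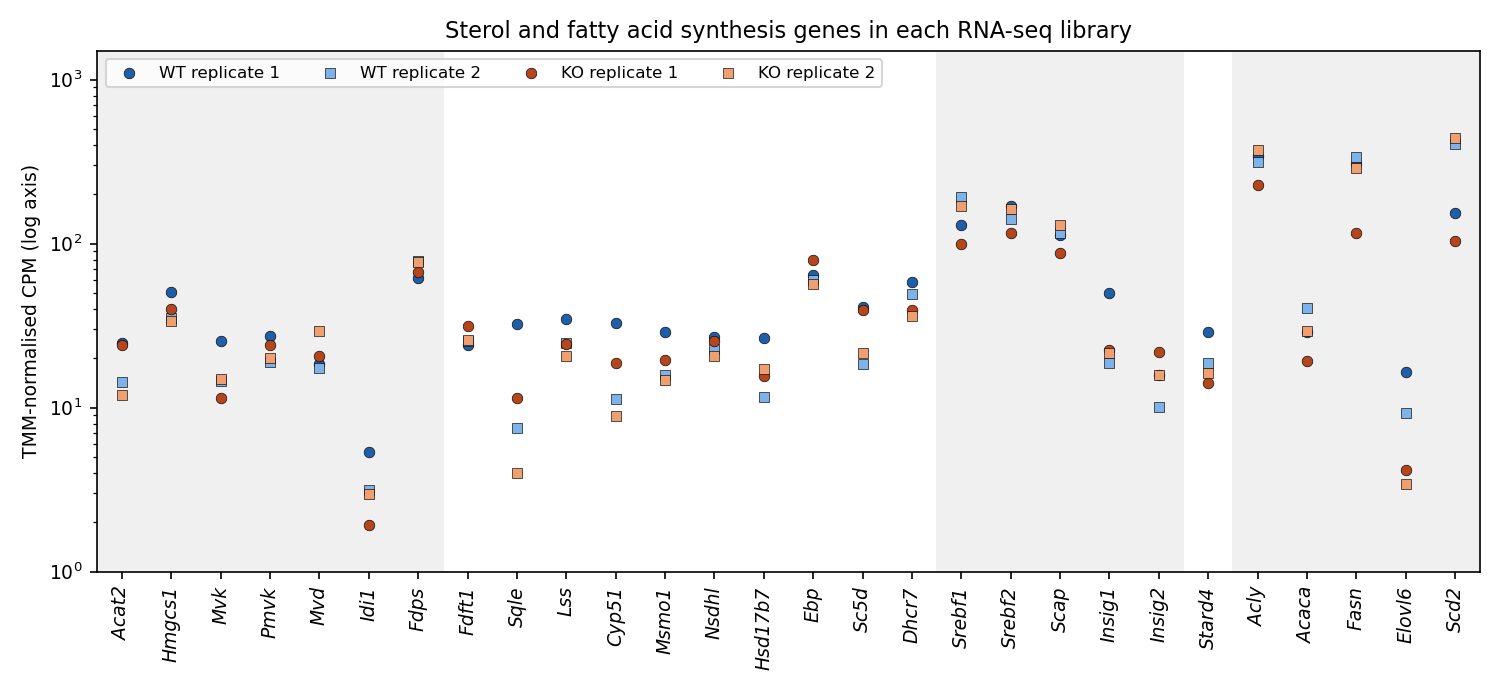
TMM-normalised CPM (log axis) of the 28 members past the filter in each of the 4 libraries, shaded by role from the mevalonate steps at the left to fatty acid synthesis at the right. For most sterol enzymes WT replicate 1 is the highest point, while KO replicate 1 is the lowest point for Acly, Acaca, Fasn and Scd2.

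Elovl6 (chromosome 3, 129532386 to 129638495) encodes the elongase that extends palmitate to stearate. It had 16.4 and 9.34 CPM in WT against 4.15 and 3.41 CPM in KO, from 328, 176, 67 and 58 counts. Both KO libraries were below both WT libraries, and WT replicate 1 was the highest of the 4. KO was 3.41-fold lower, a log2 fold change of -1.77 (SE 0.48, n = 2 libraries for each genotype), and Elovl6 fell by DESeq2 (adjusted p = 0.0378) but did not pass edgeR. DESeq2 no longer called it when any of the 4 libraries was left out, which leaves 1 genotype with a single library that is taken to vary like the libraries of the other. The adjusted p was then 0.9998 and 0.122 for the WT libraries left out in turn, and 0.323 and 0.330 for the KO libraries. The edgeR log2 fold change stayed between -2.11 and -1.30. The genotypes also differed in the granule neutrophil markers, with 8 of 10 higher in both KO libraries as given above. The part of such cells in the Elovl6 difference was not tested.

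Fasn, the multi-domain synthase that builds palmitate, had 307 and 337 CPM in WT against 117 and 289 CPM in KO. The KO libraries were both below WT, but KO replicate 2 was close to WT and KO replicate 1 was far below it. Its log2 fold change was -0.67 (SE 0.45, edgeR adjusted p = 0.843, DESeq2 adjusted p = 0.860). Without KO replicate 2 DESeq2 called it lower (log2 fold change -1.46, adjusted p = 1.35e-04), but this sets KO replicate 1 alone against WT, with a spread taken from the WT libraries only. Without KO replicate 1 the edgeR fold change was -0.15. Acaca, the acetyl-CoA carboxylase that supplies malonyl-CoA, had 28.9 and 40.6 CPM in WT against 19.2 and 29.2 CPM in KO. Acly, the citrate lyase that feeds both branches, had 341 and 314 CPM in WT against 229 and 373 CPM in KO. Both genes overlapped between the genotypes and were lowest in KO replicate 1. Without KO replicate 1 the edgeR log2 fold change of Acly was 0.19. KO replicate 1 is also the library with high Xist and that with the highest sum of dendritic cell and MHC class II markers. The part of sex, or of the cells that express those markers, in these values was not tested.

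Scd2, a stearoyl-CoA desaturase that makes monounsaturated fatty acids, differed more between replicates than between genotypes. It had 153 and 407 CPM in WT against 103 and 441 CPM in KO, so replicate 2 was 2.67-fold above replicate 1 in WT and 4.27-fold above it in KO. The log2 fold change between genotypes was -0.04 (SE 0.80). Its paralog Scd1, the main isoform of liver and fat, was at or near 0 as given above, where a count of 3 corresponds to between 0.15 and 0.19 CPM. Over the 5 tested fatty acid enzymes, 5 were below 0, with a median log2 fold change of -0.52, which was -1.44 without KO replicate 2 and -0.15 without KO replicate 1.

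**Figure D3:**
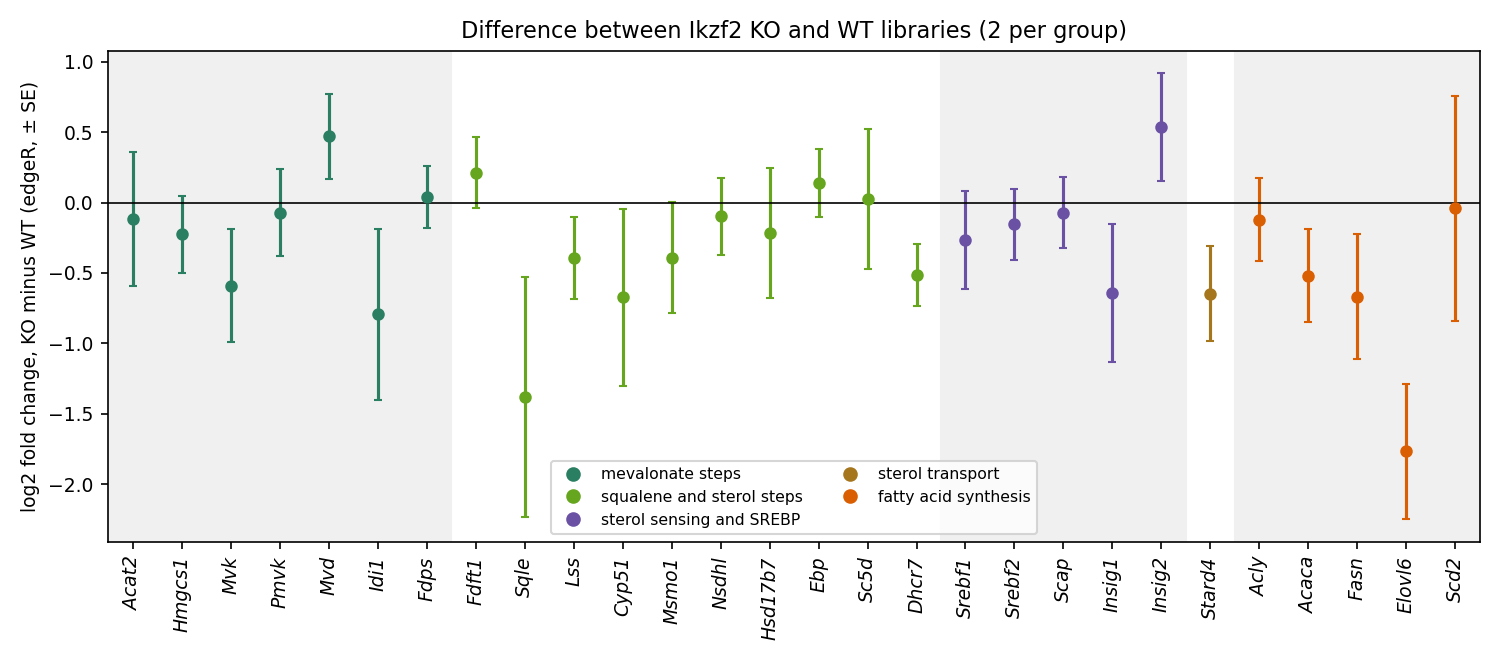
Log2 fold change of KO against WT by edgeR (points, with bars of 1 SE, 2 libraries per genotype) for the 28 members past the filter. Elovl6 at -1.77 lies furthest below 0, and Sqle at -1.38 has the longest bar, an SE of 0.85.

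Among the mevalonate steps, 5 of 7 enzymes were below 0, with a median of -0.12. Hmgcs1, the synthase that makes HMG-CoA, had 50.7 and 35.3 CPM in WT against 39.8 and 33.7 CPM in KO (-0.23 on the log2 scale, SE 0.27). Mvk, mevalonate kinase, had 25.4 and 14.5 CPM in WT against 11.5 and 15.0 CPM in KO. Idi1, the isopentenyl diphosphate isomerase, was low throughout at 5.40 and 3.13 CPM in WT against 1.92 and 2.99 CPM in KO. These 3 genes were highest in WT replicate 1, and the genotypes overlapped in Hmgcs1 and Mvk. Mvd, a decarboxylase of the mevalonate steps, went the other way. It had 18.4 and 17.6 CPM in WT against 20.7 and 29.2 CPM in KO (0.47 on the log2 scale, SE 0.30). Fdps, which makes farnesyl diphosphate, was at 62.1 and 78.4 CPM in WT against 67.2 and 76.8 CPM in KO. Pmvk, the second kinase of the series, had a log2 fold change of -0.07 (SE 0.31). Acat2, the cytosolic thiolase, had 24.8 and 14.3 CPM in WT against 24.1 and 12.0 CPM in KO. Its reads could be shared with Acat3, an adjacent gene of the same family on chromosome 17 with 72.4 to 132 CPM, so its counts are uncertain.

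Of the 10 squalene and sterol enzymes 7 were below 0, with a median of -0.30. Sqle (chromosome 15, 59315092 to 59331193), the squalene epoxidase and a rate-limiting enzyme of sterol synthesis, spanned the widest range of the sterol enzymes, at 32.6 and 7.48 CPM in WT against 11.4 and 3.99 CPM in KO. KO replicate 1 stood above WT replicate 2, so the genotypes overlapped, and the log2 fold change was -1.38 (SE 0.85, edgeR adjusted p = 0.814). Without WT replicate 1 it was 0.038. Cyp51, the lanosterol demethylase, had 32.8 and 11.4 CPM in WT against 18.8 and 8.92 CPM in KO (-0.67 on the log2 scale, SE 0.63). The order of the 4 libraries was the same as in Sqle. Dhcr7, which reduces 7-dehydrocholesterol in a final step, had the lowest p of the sterol enzymes, with 58.8 and 49.3 CPM in WT against 39.4 and 36.2 CPM in KO. Its log2 fold change was -0.52 (SE 0.22, edgeR adjusted p = 0.681, DESeq2 adjusted p = 0.668), and it lay between -0.63 and -0.39 with a library left out. Lss, the cyclase that forms lanosterol, was also lower in both KO libraries, but by a small margin, at 24.6 CPM in KO replicate 1 against 24.7 CPM in WT replicate 2. Fdft1, the squalene synthase, was higher in both KO libraries, at 24.0 and 25.4 CPM in WT against 31.3 and 25.9 CPM in KO. Its margin of 25.9 over 25.4 CPM was small. The demethylation enzymes Msmo1, Nsdhl and Hsd17b7 had log2 fold changes of -0.39 (SE 0.40), -0.10 (SE 0.28) and -0.22 (SE 0.46), and the isomerase Ebp and the desaturase Sc5d of 0.14 (SE 0.24) and 0.03 (SE 0.50). Nsdhl and Ebp lie on chromosome X, and sex is not balanced between the genotypes. Ebp was highest in KO replicate 1, the library with high Xist, at 79.8 CPM, and Nsdhl in WT replicate 1, at 26.9 CPM. The part of sex in these 2 genes was not tested. Over all 17 sterol enzymes 12 were below 0, with a median log2 fold change of -0.22, which turned to 0.10 without WT replicate 1.

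The sterol-sensing genes did not pass either test. Srebf1 had 129 and 193 CPM in WT against 99.0 and 169 CPM in KO (-0.26 on the log2 scale, SE 0.35), and Srebf2 169 and 141 CPM in WT against 115 and 163 CPM in KO (-0.15, SE 0.25). Scap was at 113 and 116 CPM in WT against 87.7 and 130 CPM in KO. All 3 were lowest in KO replicate 1. Insig1, itself a target of SREBP, had 49.9 CPM in WT replicate 1 and 18.7, 22.3 and 21.6 CPM in WT replicate 2 and KO replicates 1 and 2. Its log2 fold change of -0.64 (SE 0.49) became 0.24 without WT replicate 1. Insig2, the isoform less dependent on SREBP, had 15.9 and 10.1 CPM in WT against 21.8 and 15.9 CPM in KO (0.54 on the log2 scale, SE 0.38), and KO replicate 2 was above WT replicate 1 by 15.91 to 15.85 CPM only. In the annotation the spans of 3 members, introns included, overlap a protein-coding gene. These are Fdft1 with Ctsb, Srebf1 with Rai1 and Acaca with Tada2a and Gm11437. Reads in a stretch that such genes share cannot be told apart without a stated strand setting. The share of such reads was not measured. Stard4, which carries cholesterol between membranes, had 28.8 and 18.8 CPM in WT against 14.1 and 16.3 CPM in KO, with both KO libraries lower (-0.65 on the log2 scale, SE 0.34, edgeR adjusted p = 0.764).

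Libraries of the same genotype also differed in these genes. Sterol enzymes were mostly higher in the libraries numbered 1, led by Sqle, and Scd2, Srebf1 and Acaca were higher in those numbered 2. Among the 17 sterol enzymes 13 were highest in WT replicate 1, 76.5%, against 23.9% of all tested genes. Replicate 1 was above replicate 2 in both genotypes in 11 of 17 sterol enzymes and in 8 of the 10 squalene and sterol enzymes but 3 of the 7 mevalonate enzymes, against 29.6% of all tested genes, and replicate 2 was above replicate 1 in both in 1 of 17, Fdps, against 28.6%. The ratio of replicate 1 to replicate 2 was 4.35 in WT and 2.85 in KO for Sqle, 2.89 and 2.10 for Cyp51, 2.25 and 1.82 for Sc5d and 1.73 and 2.00 for Acat2. The fatty acid enzymes went partly the other way: 3 of 5 were above in replicate 2 of both genotypes, namely Scd2, Acaca and Fasn, and Elovl6 followed the sterol genes. Srebf1 was 1.49-fold and 1.71-fold higher in replicate 2 of WT and KO. The median difference of replicate 2 from replicate 1 in log2 CPM was -0.52 in WT and -0.27 in KO over the sterol enzymes and 0.13 and 0.70 over the fatty acid enzymes. The mevalonate enzymes alone had medians of -0.52 in WT and 0.19 in KO, opposite in sign. Over all tested genes the medians were -0.0017 and -0.012. These comparisons within WT and within KO share no library, and the labels do not say that a number marks a shared mouse, day or batch.

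**Figure D4:**
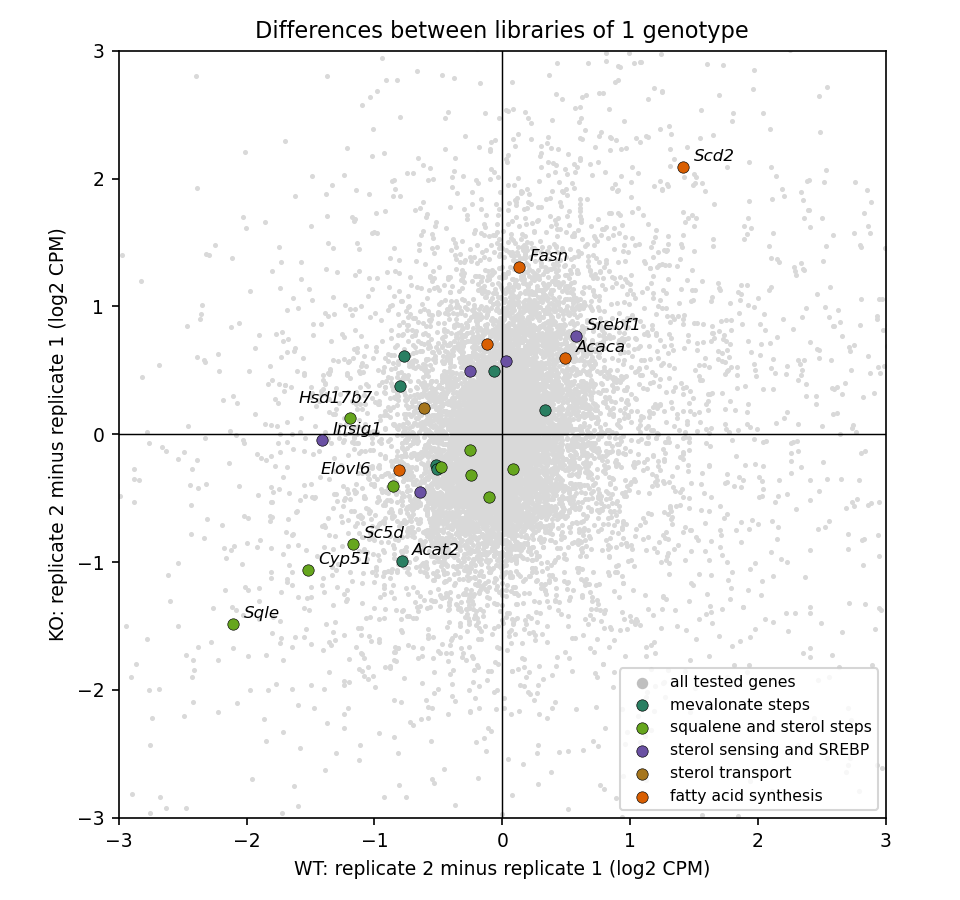
Difference between replicate 2 and replicate 1 in log2 CPM within WT (horizontal) and within KO (vertical) for each tested gene (grey) and for the 28 members, coloured by role; 377 genes lie outside the plotted range of 3. Sqle, Cyp51, Sc5d and Acat2 lie at the lower left, higher in replicate 1 of both genotypes, and Scd2, Acaca and Srebf1 at the upper right.

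In the mean over each branch, the sterol enzymes stood at 4.93 and 4.28 log2 CPM in WT replicates 1 and 2 and at 4.515 and 4.22 log2 CPM in KO replicates 1 and 2. The fatty acid enzymes, Scd1 left out, stood at 6.57 and 6.79 log2 CPM in WT against 5.55 and 6.44 log2 CPM in KO. Gene length was not corrected, so the gap between branches is read only across libraries, where the same genes enter. That gap was 1.64 and 2.51 in WT and 1.04 and 2.21 in KO, so both replicate 2 libraries were above both replicate 1 libraries whatever the genotype. The difference between genotypes in the gap was -0.45 with group means of 2.07 (SD 0.61, n = 2) in WT and 1.63 (SD 0.83, n = 2) in KO, less than the spread within either group. Without KO replicate 1 it was 0.14, without KO replicate 2 -1.04, without WT replicate 1 -0.88 and without WT replicate 2 -0.014. Without Scd2 the gap was 1.47 and 2.04 in WT and 0.75 and 1.63 in KO, and the replicate 2 library remained the higher in each genotype. The difference between genotypes was then -0.56, more than the SD of 0.40 in WT and less than the SD of 0.62 in KO. An exact permutation test of 2 against 2 libraries cannot go below a two-sided p of 0.333.

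**Figure D5:**
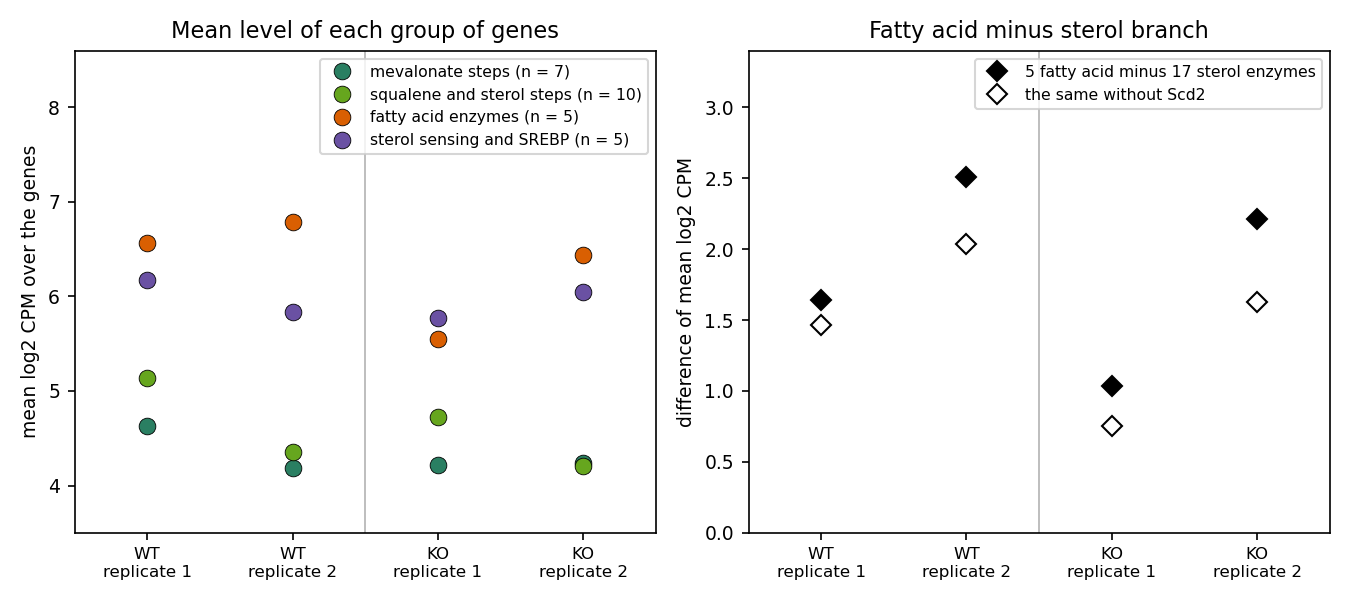
Mean log2 CPM of each group of genes (left) and the mean of the 5 tested fatty acid enzymes minus that of the 17 sterol enzymes (right, also without Scd2) in each library; 1 point is 1 library and there are no error bars. The right panel shows 2.51 and 2.21 in the replicate 2 libraries against 1.64 and 1.04 in the replicate 1 libraries.

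Other measures moved with replicate number as well. The 7 immediate early genes, which respond to cell handling, summed to 913 and 3290 CPM in WT and to 1360 and 8930 CPM in KO, with 7 of 7 higher in replicate 2 of both genotypes. The granule neutrophil markers were higher in replicate 2 of both genotypes in 9 of 10 cases. Their part in the differences of the lipid genes was not tested. Of 11 genes of cholesterol efflux, storage and trafficking, 5 were higher in replicate 2 of both genotypes and 2 in replicate 1 of both, with a median difference of replicate 2 from replicate 1 of 0.35 in WT and 0.011 in KO. Chosen among them after their values were seen, the LXR targets Abca1 and Abcg1, which export cholesterol, and the ubiquitin ligase gene Mylip were among the 5. Abca1 had 2.201 and 12.6 CPM in WT against 4.70 and 10.2 CPM in KO, Abcg1 15.1 and 61.5 CPM and 29.1 and 47.6 CPM, and Mylip 31.5 and 56.8 CPM and 34.1 and 69.4 CPM. Their log2 fold changes between genotypes were 0.010 (SE 0.90), 0.0045 (SE 0.69) and 0.23 (SE 0.45).

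Of 49 further genes of lipid metabolism reported here, 48 were tested. Neither edgeR nor DESeq2 called any of them at an adjusted p under 0.05. In edgeR 3 of the 48 had an unadjusted p under 0.05, against 7.67% of all tested genes. Log2 fold changes were below 0 in 20 of 48, with a median of 0.086. Of 7 other genes of sterol and isoprenoid synthesis 4 were above 0 with a median of 0.12. Lbr, a protein of the inner nuclear membrane with sterol reductase activity, had 0.36 (SE 0.23) and Dhdds, a subunit of the enzyme that makes the dolichol precursor, -0.011 (SE 0.30). Of 8 genes of SREBP processing and turnover 4 were below 0 with a median of 0.024. Mbtps1, the site-1 protease that cuts SREBP, had -0.29 (SE 0.23), and Erlin1, a membrane protein of the endoplasmic reticulum, -0.30 (SE 0.26). Of 11 genes of cholesterol efflux, storage and trafficking 8 were above 0 with a median of 0.084. Npc2, which hands cholesterol out of lysosomes, had 0.10 (SE 0.27) and Nr1h2, the LXR beta gene, 0.084 (SE 0.19). Of 15 tested genes of further fatty acid synthesis, elongation and activation 9 were above 0 with a median of 0.16. The acyl-CoA synthetase genes Acsl1 and Acsl5 had 0.34 (SE 0.35) and -0.39 (SE 0.28). Of 7 fatty acid oxidation genes 4 were below 0 with a median of -0.087. Hadha, a subunit of the trifunctional protein, had -0.36 (SE 0.24) and Cpt1a, the carnitine transferase that admits fatty acids to mitochondria, 0.25 (SE 0.23). The KO libraries lay above WT without overlap in 12 of the 48 tested genes and below it in 9, against 18.1% and 19.1% of all tested genes. Chosen after their values were seen, the 3 with an unadjusted p under 0.05 were Elovl5, an elongase of polyunsaturated fatty acids, Soat1, which esterifies cholesterol, and the acyl-CoA synthetase gene Acsl3. None overlapped between genotypes, with Elovl5 and Soat1 higher in KO and Acsl3 lower. Elovl5 had 108 and 121 CPM in WT against 169 and 192 CPM in KO (0.66 on the log2 scale, SE 0.20, edgeR adjusted p = 0.525), and Soat1 29.8 and 37.9 CPM and 73.1 and 50.02 CPM (0.86, SE 0.28, edgeR adjusted p = 0.562). Acsl3 had 18.6 and 28.6 CPM in WT against 12.4 and 11.8 CPM in KO (-0.96, SE 0.34, edgeR adjusted p = 0.594). Fads1, a desaturase of polyunsaturated fatty acids also chosen after its values were seen, had a larger difference with a wider error (-1.15, SE 0.52, edgeR adjusted p = 0.712).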

How the data were processed

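Each RNA library has a deposited file of the authors' raw counts by gene symbol. Build mm10 is named in the submitters' processing notes, which list STAR 2.3.0 and HTSeq, and also Picard, MACS2 and Bowtie2 2.2.5, without a role for each. Annotation and strand setting are not given in the sources at hand, so reads in a stretch shared by overlapping genes cannot be told apart. The 5 closing rows of reads given to no gene (69.3% to 72.4% of all counts) were left out. The 4 chromatin accessibility samples were not analysed here. In R 4.3.3, genes were kept by filterByExpr (12623) and compared by edgeR 4.0.16 (quasi-likelihood F-test, TMM, no covariate, Benjamini-Hochberg adjustment over all tested genes, threshold 0.05). DESeq2 1.42.0 and voom in limma 3.58.1 were alternatives, beside another scaling, no filter, a replicate block and leaving out each library. The SE is the log2 fold change divided by the square root of F. Log2 CPM used a prior count of 2. Fits were tested on simulated data with the same set spread for every gene and large changes only. That test does not show how the fits perform on these libraries. Libraries of a group differed beyond counting noise (chi-square per degree of freedom 81.0 in WT and 109 in KO), so each counted as 1 sample. Coordinates and promoters are RefSeq's on GRCm38.p6, the assembly that mm10 names. The members and lists were chosen with earlier results of these data known. Some genes of these pathways and lists are not reported here. All 29 members were named by rule. The rule for the further lists was genes called by edgeR or DESeq2, or else the 2 of highest mean CPM. Outside this rule, Abca1, Abcg1, Mylip, Elovl5, Soat1, Acsl3 and Fads1 were named after their values were seen. Acss2 and Cyp27a1 were named for a DESeq2 call with a library left out.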

Additional observations from a re-analysis of the deposited data

How the results depend on the processing

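The number of calls depended most on the tool, and the sign of single genes mostly on which library was left out. Over all genes edgeR called 0, and 4 with no filter, 11 with the replicate block, 352 by DESeq2 and between 0 and 156 with a library left out; voom, RLE size factors and library sizes alone gave 0. Members called by edgeR stayed at 0 in these edgeR fits and numbered 1 by DESeq2, which called between 0 and 1 with a library left out, an alternative chosen after seeing the data. Further lipid genes called numbered 0 by edgeR, also with a library left out, and 0 by DESeq2 (0 to 1 with a library left out). The added DESeq2 calls were Fasn and Acss2 without KO replicate 2 and Cyp27a1 without KO replicate 1, each with 1 KO library set against the spread of the WT libraries. The median log2 fold change ran from -0.45 to 0.10 for the sterol enzymes and from -1.44 to -0.15 for the fatty acid enzymes with a library left out, and the gap between branches from -1.04 to 0.14. Of 28 tested members 11 kept their sign in every alternative run, and 17 changed sign with some library left out. With library sizes alone as scaling, which moved the median of all genes to -0.069, Fdps was at -0.029 and Sc5d at -0.033. The log2 fold changes that changed sign with a library left out ranged as follows: Acat2 (-0.70 to 0.33), Hmgcs1 (-0.45 to 0.060), Pmvk (-0.29 to 0.21), Fdps (-0.12 to 0.23), Sqle (-2.32 to 0.038), Cyp51 (-1.30 to 0.28), Msmo1 (-0.75 to 0.10), Nsdhl (-0.26 to 0.050), Hsd17b7 (-0.68 to 0.50), Ebp (-0.13 to 0.36), Sc5d (-0.47 to 0.73), Srebf1 (-0.70 to 0.072), Srebf2 (-0.42 to 0.074), Scap (-0.38 to 0.19), Insig1 (-1.17 to 0.24), Acly (-0.52 to 0.19), Scd2 (-1.44 to 0.85), Dhdds (-0.47 to 0.34), Npc2 (-0.21 to 0.36) and Cpt1a (-0.00085 to 0.46). Dhdds, close to 0, was also at 0.0032 with RLE size factors, 0.0025 with no filter and 0.0024 by DESeq2. The cause was not tested. Libraries with the same number deviated together with a correlation of 0.191 over 12623 genes. With 2 libraries per genotype this value is by construction the same for replicates 1 and 2. It does not establish pairing. The replicate block called 0 members, with a log2 fold change of -1.72 for Elovl6.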
